A study of Mus musculus with 20 samples.

Results

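A set of 10 genes was followed: the signal-transducing receptor chain gp130 (Il6st), its partner chains Osmr, Lifr, Cntfr and Il6ra, the kinases Jak1 and Jak2, the transcription factor Stat3 and the inhibitors Socs3 and Socs2. They were chosen by symbol, and all 10 were among the 39017 genes of the counts table, each listed once. RNA had been sequenced from sorted microglia and sorted astrocytes of the left forebrain, the injured side, of adult male C57BL/6 mice (C57BL/6J in the methods), 3 to 4 months old, 7 days after lateral fluid percussion injury (FPI) or sham injury. In FPI a fluid pulse strikes the exposed dura. Sham mice had the same craniectomy, anesthesia and connection to the device, without the pulse, so both conditions share the surgery. No transgene or drug separated the groups. There were 5 libraries in each of 4 groups: sham microglia, FPI microglia, sham astrocytes and FPI astrocytes. Microglia had been gated as CD11b+ with intermediate CD45, astrocytes by the surface antigen ACSA-2, and each library came from 1 animal, without pooling.

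Cytokines of the interleukin-6 family act through gp130. Interleukin-6 binds the non-signalling chain encoded by Il6ra, ciliary neurotrophic factor binds the lipid-anchored chain encoded by Cntfr together with the leukemia inhibitory factor receptor (Lifr), and oncostatin M binds gp130 with Osmr or Lifr. The assembled receptor activates JAK kinases, which phosphorylate STAT3, and STAT3 in turn induces Socs3, whose product binds gp130 and JAKs and shuts the signal down. Socs2 encodes a related inhibitor best known in growth hormone signalling. In the injured brain this pathway is known for its part in reactive astrogliosis, and STAT3 for its action upstream of Gfap.

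Total counts per library ran from 5623349 to 13110857, with a median of 8138608.5. All levels are in CPM (library size corrected by TMM factors from the 20 libraries together), as mean ± SD over 5 libraries unless single libraries are given. Each sorted population held far more of its own markers than the other did: 8 microglial markers summed to 15924 to 25220 CPM in microglia and 31.6 to 141 CPM in astrocytes, and 8 astrocyte markers to 9819 to 30684 CPM in astrocytes and 244 to 598 CPM in microglia. Every marker of both lists had counts in each group of the other cell type, although Itgam, Cd68 and Aif1 were at 0 in single astrocyte libraries and Sox9 in a single microglial library. Astrocyte libraries also held oligodendrocyte markers (7 genes, 1631 to 17386 CPM), oligodendrocyte precursor markers (6 genes, 252 to 1372 CPM), mural and fibroblast markers (7 genes, 297 to 4370 CPM), endothelial markers (7 genes, 25.2 to 485 CPM) and neuronal markers (7 genes, 10.2 to 40.5 CPM). In sham astrocyte library 4 the oligodendrocyte markers (17386 CPM) exceeded the astrocyte markers (9819 CPM). In FPI astrocyte library 4 they were near them (11002 and 11359 CPM). Microglial libraries held monocyte and border macrophage markers (7 genes), at 143 to 438 CPM in replicates 1 to 3 and 20.8 to 64.7 CPM in replicates 4 and 5, whose library names are of another series. FPI astrocyte library 5 was placed by its title, although its name ends like those of microglia and bears the same animal number as FPI astrocyte library 2. By animal number, 3 mice are present in both cell types. The fits treat their libraries as independent, and likewise FPI astrocyte libraries 2 and 5, which may come from 1 mouse.

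Between the cell types 7 of the 10 members were called in sham mice, against 60.9% of the 15077 genes tested. In sham mice 5 of 10 were called higher in microglia (Il6ra, Socs3, Il6st, Jak1 and Stat3), against 25.3% of the 15077 genes tested, and 2 of 10 higher in astrocytes (Cntfr and Osmr), against 35.6%. Lifr, Jak2 and Socs2 were not called. Calls are from edgeR's quasi-likelihood test and need a log2 fold change beyond 0.6 in either direction and a Benjamini-Hochberg adjusted p, over all genes, under 0.1. The median log2 fold change of all genes was -0.15 (microglia over astrocytes) and that of the members 0.53. This median moved to -0.24 with RLE factors and to -0.32 in DESeq2, and all 7 calls held under both.

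**Figure D1:**
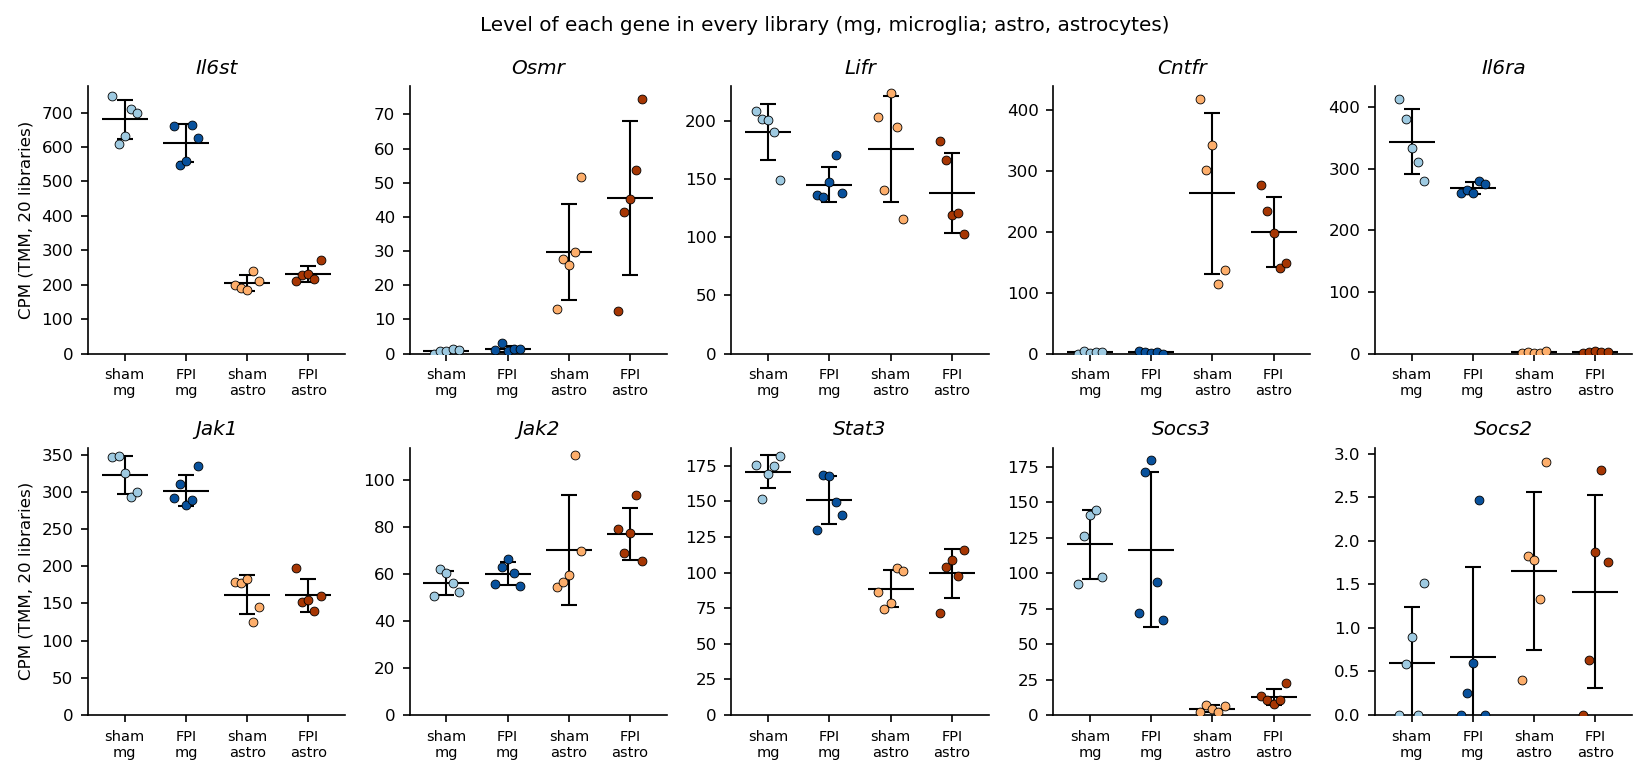
Level of each member in every library in CPM (linear axes from 0, scaled by TMM over 20 libraries) in 4 groups; points are libraries, horizontal lines means and bars SD (n = 5). Il6ra sits at 260 to 414 CPM in the microglial libraries and below 4 CPM in the astrocyte libraries, while Cntfr and Osmr show the opposite arrangement.

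Il6st (chr13:112464070-112510086, plus strand, GRCm38) encodes the chain that all these receptors share. It had 749, 610, 632, 712 and 698 CPM in sham microglia and 200, 190, 184, 241 and 211 CPM in sham astrocytes. The groups did not overlap, and the level in microglia was 3.32-fold higher (log2 fold change 1.73, SE 0.13, edgeR adjusted p = 1.89e-10). No library of either cell type had less than 184 CPM of the shared chain.

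Il6ra (chr3:89864059-89913196, minus strand), the interleukin-6 binding chain, was the member with the widest gap. Sham microglia had 414, 382, 334, 312 and 281 CPM. Sham astrocytes had 1.46, 2.96, 0.94, 1.13 and 3.79 CPM, from 9 to 34 counts a library. The difference was 167-fold (log2 fold change 7.38, SE 0.33, edgeR adjusted p = 1.20e-13). In sham astrocytes the microglial markers stood at 0.142% to 0.274% of their level in sham microglia, and the same percentages of the microglial Il6ra level come to 0.489 to 0.942 CPM. Of the exon bases of Il6ra, 242 are shared with the antisense gene Gm42809, and the strand setting of the counting is not given in the sources used here.

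Cntfr (chr4:41657498-41697089, minus strand) showed the reverse arrangement. Sham astrocytes had 418, 301, 342, 114 and 137 CPM and sham microglia 0, 3.37, 1.46, 1.93 and 2.84 CPM, with no overlap. The log2 fold change, microglia over astrocytes, was -7.06 (SE 0.65, edgeR adjusted p = 6.16e-09). Astrocyte markers in sham microglia were at 1.17% to 1.71% of their astrocyte level, and the same percentages of the astrocyte Cntfr level come to 3.06 to 4.5 CPM. Of the 5 sham microglial libraries, 4 lay below that range.

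Osmr (chr15:6813577-6874969, minus strand), the partner chain of oncostatin M signalling, was also higher in the astrocyte libraries. It had 13, 27.6, 26, 29.8 and 51.8 CPM in sham astrocytes against 0, 0.659, 0.672, 1.25 and 0.947 CPM in sham microglia. The log2 fold change was -5.38 (SE 0.57, edgeR adjusted p = 5.17e-08). Mural and fibroblast markers were at 658 to 3081 CPM in these sham astrocyte libraries and at 21.8 to 73 CPM in sham microglia, and their part in the difference was not tested. Osmr lies 216 kb from Lifr on chromosome 15.

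Lifr (chr15:7090614-7197489, plus strand), the chain for leukemia inhibitory factor, was held by both cell types. Sham microglia had 209, 202, 201, 191 and 149 CPM and sham astrocytes 203, 141, 224, 195 and 115 CPM, with overlapping ranges. The log2 fold change of 0.12 had a 95% interval of -0.25 to 0.48 and an edgeR adjusted p of 0.606.

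Of the kinases and Stat3, Jak1 and Stat3 were called higher in microglia and Jak2 was not called. Jak1 (chr4:101152367-101265282, minus strand) had 347, 348, 326, 293 and 300 CPM in sham microglia against 179, 178, 182, 125 and 145 CPM in sham astrocytes (log2 fold change 1.00, SE 0.13, edgeR adjusted p = 1.39e-06). Stat3 (chr11:100885098-100939540, minus strand) had 176, 152, 170, 175 and 182 CPM against 86.4, 74.2, 78.4, 103 and 101 CPM (0.95, SE 0.14, edgeR adjusted p = 6.01e-06). For both genes every sham microglial library lay above every sham astrocyte library. Jak2 (chr19:29251828-29313080, plus strand), the other kinase, ran from 50.5 to 62.1 CPM in sham microglia and from 54.3 to 111 CPM in sham astrocytes (log2 fold change -0.32, 95% interval -0.65 to 0.01, edgeR adjusted p = 0.109). Jak1 and Stat3 share 4 and 72 exon bases with the overlapping genes Raver2 and Stat5a on the other strand.

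Socs3 (chr11:117966079-117970047, minus strand), the feedback inhibitor, had 92.7, 126, 141, 144 and 97.3 CPM in sham microglia and 2.12, 6.88, 4.39, 2.36 and 6.57 CPM in sham astrocytes. It was 26.7-fold higher in microglia (log2 fold change 4.74, SE 0.39, edgeR adjusted p = 1.16e-09). STAT factors bind palindromes of the form TTCNNNGAA. This word was searched in the RefSeq promoter windows, 250 bases before to 50 after each start, on both strands, which read alike. Of the 9 members with a window only Socs3 held it, and of all 27025 genes with a window 9.55% did. Only the first match of the Socs3 window was listed, and the rest of the window may hold others. The part of the window shown here holds this first match. It overlaps no GENCODE exon and lies within an intron of a longer non-coding Socs3 transcript, 5′ of the start of the coding transcript (GRCm38.p6, chr11:117969452-117969616, minus strand, 5′ to 3′, the match in capitals at bases 154 to 146 before the RefSeq start).
Socs3 window: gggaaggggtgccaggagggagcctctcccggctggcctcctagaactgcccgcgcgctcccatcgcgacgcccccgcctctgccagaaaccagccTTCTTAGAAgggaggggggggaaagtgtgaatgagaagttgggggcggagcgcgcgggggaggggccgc
A match of letters is not a site of binding, which was not measured, and the absence of the word from the other windows says only that these letters are not there. Socs2, whose promoter is not in the table used, is named only.

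Socs2 (chr10:95385362-95417180, minus strand) was near the limit of detection in both cell types. Sham microglia had 0 to 8 counts a library (0 to 1.52 CPM) and sham astrocytes 3 to 23 counts (0.398 to 2.91 CPM). The log2 fold change of -1.49 had a 95% interval of -3.74 to 0.76 (edgeR adjusted p = 0.270), so a difference was not detectable at this depth.

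Compared per kb of exon, the order of the members differed between the cell types. In sham microglia Il6st led with 61.3 ± 5.2 CPM per kb, followed by Jak1 (44.7 ± 3.57), Socs3 (41.6 ± 8.34) and Il6ra (39.9 ± 6.19), whose library ranges overlapped from one to the next. Stat3 (17.9 ± 1.21) and Lifr (17.7 ± 2.21) came next and overlapped, Jak2 stood apart at 11.2 ± 0.99, and Cntfr, Socs2 and Osmr were below 1 CPM per kb on average. In sham astrocytes Cntfr led with 94.4 ± 47.4 CPM per kb and did not overlap the next gene. Jak1 (22.4 ± 3.56), Il6st (18.5 ± 2.02), Lifr (16.3 ± 4.23), Jak2 (14 ± 4.65) and Stat3 (9.30 ± 1.37) followed, each overlapping its neighbor. Osmr (2.45 ± 1.16) and Socs3 (1.54 ± 0.78) were lower and overlapped, and Il6ra (0.238 ± 0.145) and Socs2 (0.173 ± 0.095) were lowest.

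**Figure D2:**
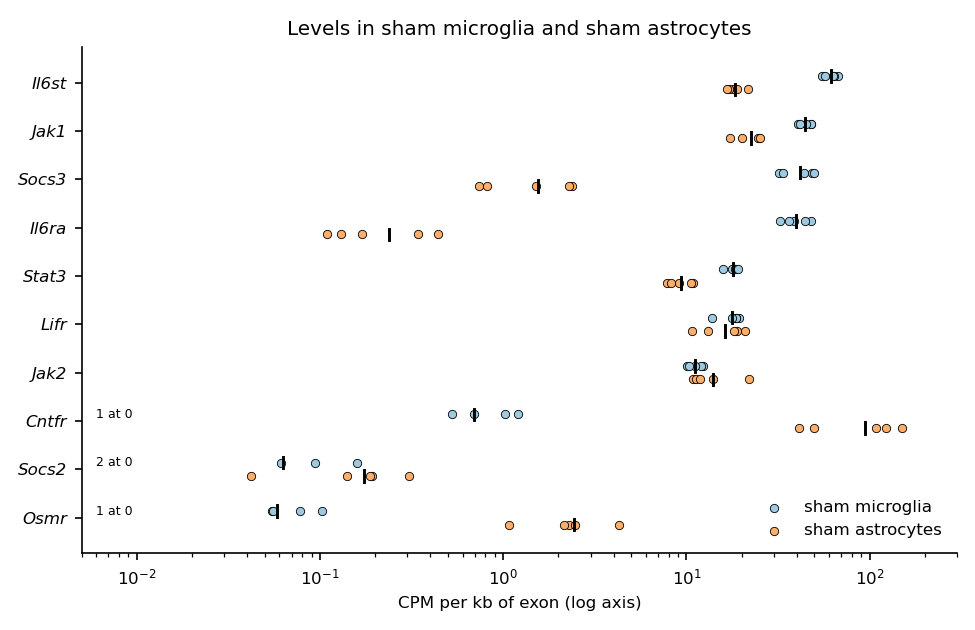
CPM per kb of exon (log axis) of each member in sham microglia and sham astrocytes; points are libraries, vertical ticks the mean of 5, and libraries at 0 are counted at the left. Il6ra and Socs3 lie far to the right in microglia and Cntfr and Osmr in astrocytes, while Lifr and Jak2 overlap.

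No member was called between FPI and sham microglia. Of the 10, 8 passed the filter on low counts and 0 were called, against 2.35% of 12143 genes. Osmr (0 to 3.00 CPM over both groups) and Socs2 (0 to 2.46 CPM) did not pass it. DESeq2 called 0 members too. Of the 8 tested, 2 had an unadjusted p below 0.05, Lifr and Il6ra, both lower after FPI, against 11.3% of all genes.

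Lifr in microglia was at 209, 202, 201, 191 and 149 CPM in sham and 136, 135, 147, 171 and 138 CPM in FPI mice. Sham libraries 1 to 4 lay above all FPI libraries and sham library 5 within their range. The log2 fold change was -0.38 (SE 0.12, edgeR unadjusted p = 0.00572, adjusted p = 0.143). In DESeq2 the adjusted p was 0.0628, with the fold change still short of 0.6.

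Il6ra was at 260, 266, 262, 281 and 276 CPM in FPI microglia, where the SD was 9.04 CPM against 53.5 CPM in sham. All FPI libraries lay below all sham libraries, the only member of which this held, against 1.27% of genes. The closest pair, sham library 5 and FPI library 4, lay less than 1 CPM apart. The log2 fold change was -0.34 (SE 0.12, edgeR unadjusted p = 0.0106, adjusted p = 0.207). For both genes the difference of mean log2(CPM + 0.5) was larger in replicates 1 to 3 (Lifr -0.55, Il6ra -0.51) than in replicates 4 and 5 (-0.14 and -0.09). Monocyte and border macrophage markers were also higher in replicates 1 to 3, and their part in these values was not tested.

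The 95% intervals of the other microglial members included 0. Il6st had 662, 548, 558, 663 and 627 CPM after FPI (log2 fold change -0.14, 95% interval -0.37 to 0.10). Stat3 had 130, 168, 168, 149 and 141 CPM (-0.17, -0.39 to 0.06), Jak1 283 to 335 CPM (-0.08, -0.30 to 0.14) and Jak2 55.1 to 66.5 CPM (0.11, -0.13 to 0.35). The edgeR adjusted p-values of these 4 were 0.695 to 0.881. Socs3 had 71.8, 171, 180, 93.8 and 67 CPM in FPI microglia, against 92.7 to 144 CPM in sham. Libraries 2 and 3 lay above and libraries 1 and 5 below all sham libraries, the SD was 54.6 CPM against 24.1 CPM in sham, and the means were 117 and 120 CPM (log2 fold change -0.04, SE 0.22, edgeR adjusted p = 0.976). Cntfr stayed at 0 to 4.09 CPM in all microglial libraries.

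**Figure D3:**
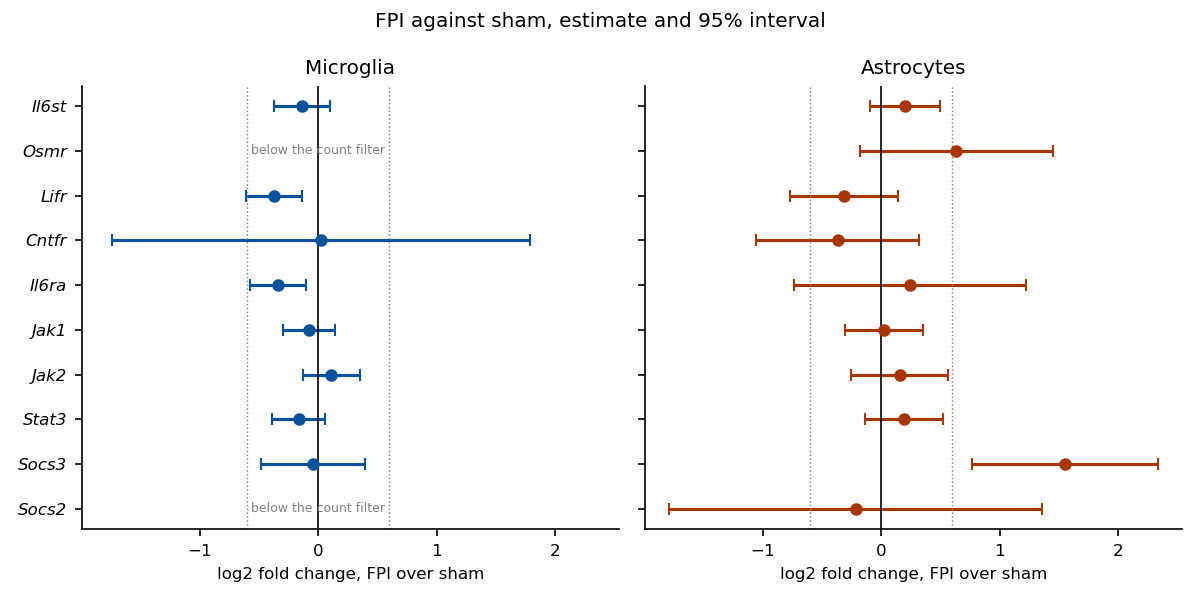
Log2 fold change of each member, FPI over sham, in microglia and in astrocytes, with the 95% interval from the edgeR fit of each cell type; dotted lines mark 0.6 in either direction. The interval of Socs3 in astrocytes, 0.76 to 2.34, is the only one wholly above 0.6.

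In astrocytes all 10 members were tested and 0 were called by edgeR, against 0.00728% of 13741 genes, that is 1 gene. Only 1 member, Socs3, had an unadjusted p below 0.05, against 2.32% of genes, and 1 member, again Socs3, had all FPI libraries above all sham libraries, against 0.451%.

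Socs3 was at 2.12, 6.88, 4.39, 2.36 and 6.57 CPM in sham astrocytes and at 13.2, 10.5, 7.97, 10.3 and 22.4 CPM in FPI astrocytes. These values rest on 16 to 79 counts a sham library and 64 to 140 counts an FPI library. The fold change was 2.93 (log2 fold change 1.55, SE 0.40, 95% interval 0.76 to 2.34), with an edgeR unadjusted p of 0.00216, 23rd in rank of all genes, and an adjusted p of 0.999. DESeq2 gave a log2 fold change of 1.56 with an adjusted p of 0.0992 and called it, among 39 genes. Over all alternatives the log2 fold change ran from 1.23 (without FPI library 5) to 1.75, and the adjusted p from 0.0992 to 1.00. FPI library 5, the highest, bears the animal number of FPI library 2, and with these 2 libraries summed edgeR called 0 genes. The difference was 1.25 on the log2(CPM + 0.5) scale in replicates 1 to 3 and 1.81 in replicates 4 and 5. Its sign was fixed in both subsets, because no FPI library overlapped the sham libraries.

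Microglial markers were also higher in FPI than in sham astrocytes: they summed to 31.6 to 60.8 CPM in sham and 42.5 to 141 CPM in FPI, or 0.211% to 0.701% of their level in FPI microglia. The same percentages of the microglial Socs3 level come to 0.246 to 0.817 CPM, below the 7.97 to 22.4 CPM measured in FPI astrocytes. Mural and fibroblast markers ran from 658 to 3081 CPM in sham and from 297 to 4370 CPM in FPI astrocytes, endothelial markers from 25.2 to 485 and from 104 to 418 CPM, and the part of these cells in the Socs3 level was not tested. In bulk RNA a change in the share of a cell type and a change in RNA per cell cannot be told apart.

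**Figure D4:**
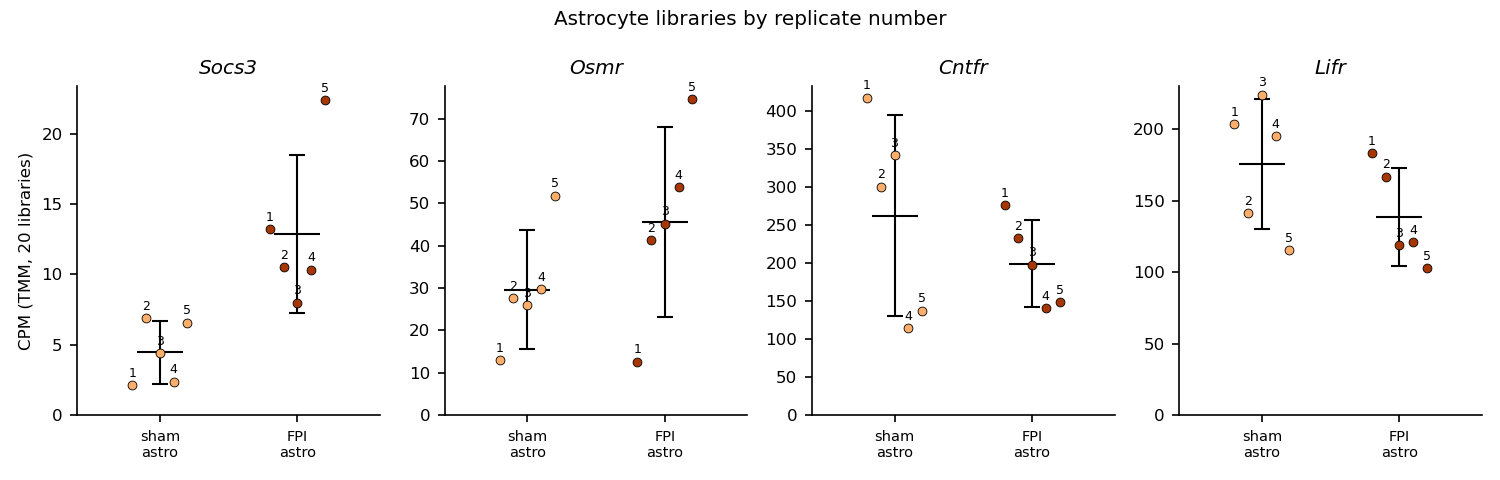
Astrocyte levels of Socs3, Osmr, Cntfr and Lifr in CPM (linear axes from 0); points are libraries labelled by replicate number, lines means and bars SD (n = 5). The FPI libraries of Socs3 lie at 7.97 to 22.4 CPM, above the sham libraries at 2.12 to 6.88 CPM, while the other 3 genes overlap and Cntfr is low in replicates 4 and 5 of both groups.

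Osmr was at 12.6, 41.3, 45.2, 53.8 and 74.6 CPM after FPI against 13 to 51.8 CPM in sham. The ranges overlapped, and the log2 fold change of 0.64 (95% interval -0.18 to 1.45) had an edgeR adjusted p of 0.999. Its level went with that of another cell type: in each group replicate 1 had the least Osmr and the least mural and fibroblast marker RNA (658 CPM in sham and 297 CPM in FPI), and replicate 5 the most of both (3081 and 4370 CPM of the markers). The part of these cells in the Osmr level was not tested.

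Cntfr differed more between replicates than between sham and FPI. Replicates 1 to 3 had 301 to 418 CPM in sham and 198 to 276 CPM in FPI astrocytes, and replicates 4 and 5 had 114 to 137 and 141 to 148 CPM. The difference between FPI and sham was -0.59 in replicates 1 to 3 and 0.20 in replicates 4 and 5 (log2(CPM + 0.5) scale), and over all libraries the log2 fold change was -0.37 (95% interval -1.05 to 0.32, edgeR adjusted p = 0.999). The summed astrocyte markers were lower in the same replicates, at 9819 to 15440 CPM in 4 and 5 against 19168 to 30684 CPM in 1 to 3, and their part in the Cntfr level was not tested.

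The remaining astrocyte members overlapped between sham and FPI. Il6st had 210, 229, 231, 217 and 271 CPM after FPI (log2 fold change 0.20, 95% interval -0.09 to 0.50) and Stat3 71.3, 104, 109, 97.4 and 116 CPM (0.19, -0.14 to 0.52). Lifr had 183, 167, 119, 121 and 103 CPM (-0.31, -0.77 to 0.14). Jak1 (140 to 198 CPM) and Jak2 (65.3 to 93.7 CPM) had log2 fold changes of 0.02 (-0.31 to 0.35) and 0.16 (-0.25 to 0.57). Il6ra (13 to 28 counts a library) and Socs2 (0 to 24 counts) were too low for a difference to be resolved, with intervals of -0.74 to 1.23 and -1.79 to 1.36. For all of them the edgeR adjusted p was 0.999.

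The effect of FPI was compared between the cell types in the fit of all 20 libraries, where 0 of 10 members were called against 0.199% of 15077 genes. Socs3 had the smallest p: its log2 fold change was 1.55 lower in microglia than in astrocytes (SE 0.49, edgeR unadjusted p = 0.00445, adjusted p = 0.375). For Il6st (-0.33, SE 0.17) and Stat3 (-0.34, SE 0.20) the adjusted p was 0.757 and 0.793, and for the other 7 it was 0.863 or above. DESeq2 called 0 members as well. At an unadjusted p below 0.05 there was 1 of the 10 members, Socs3, against 1058 of the 15077 genes.

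The ligands of these receptors were measured in the same libraries. Of 10 ligand genes 6 could be tested between sham microglia and sham astrocytes, and 5 were higher in microglia and 1 in astrocytes. Within the cell types, 5 ligands passed the count filter in microglia and only Lif in astrocytes. The directions thus followed from the filter, and the counts are description, not a test. Osm, which encodes oncostatin M, had 14.3 ± 1.53 CPM in sham microglia and 0 counts in every sham astrocyte library, at least 43.1-fold higher when each astrocyte library is set at 3 counts. Ebi3, a subunit of interleukin-27, had 19 ± 5.5 CPM and also 0 counts in sham astrocytes (at least 57.2-fold higher). Lif was the astrocyte ligand, at 6.16 ± 1.76 CPM, with 0 counts in sham microglia (at least 16.7-fold higher in astrocytes). Osm and its receptor chain Osmr were thus higher in opposite sorted populations. The counts of this and the following lists stand beside the same shares of all genes, 25.3% called higher in sham microglia and 35.6% in sham astrocytes. For genes of those lists that were near 0 in 1 cell type, the direction likewise followed from the filter.

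After FPI none of 5 ligands tested in microglia was called or had an unadjusted p below 0.05. The 2 with the smallest p were Clcf1, a ligand of the Cntfr complex, at 31.7 ± 3.60 CPM in sham and 23.9 ± 10.02 CPM in FPI microglia (edgeR adjusted p = 0.567), and Osm, at 14.3 ± 1.53 and 21.6 ± 15.1 CPM (0.580). In astrocytes only Lif could be tested, at 6.16 ± 1.76 and 4.71 ± 1.38 CPM (edgeR adjusted p = 0.999).

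Among 7 other receptors of the family and near relatives, 5 could be tested between the cell types, with 2 called higher in microglia and 2 in astrocytes. Csf3r, the receptor of granulocyte colony-stimulating factor, had 566 ± 70.8 CPM in sham microglia and 1 count in all sham astrocyte libraries together. Il12rb2 had 3.75 ± 2.15 CPM against 0.353 ± 0.226 CPM, whereas Il12rb1 (3.18 ± 2.51 against 0.105 ± 0.153 CPM) and the leptin receptor Lepr (2.47 ± 2.1 against 0.164 ± 0.227 CPM) were higher in astrocytes. Both were low, with 138 and 113 counts in all sham astrocyte libraries together. The ranges of Il12rb1 overlapped, at 0.313 to 6.95 CPM in sham astrocytes and 0 to 0.336 CPM in sham microglia. After FPI none of 3 tested in each cell type was called or had an unadjusted p below 0.05. Csf3r in microglia was at 627 ± 75.7 CPM and Il12rb2 at 5.89 ± 2.87 CPM (edgeR adjusted p = 0.736 and 0.725), and in astrocytes Lepr was at 3.62 ± 2.75 CPM and Il12rb1 at 2.65 ± 1.39 CPM (both 0.999).

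Of 7 other cytokine receptors (Ghr, Prlr, Epor, Il10ra, Il10rb, Il4ra and Il13ra1), 4 were called higher in sham microglia and 1 in sham astrocytes. Il10ra had 668 ± 36.4 CPM in sham microglia against 0.166 ± 0.240 CPM, and Il4ra 261 ± 38.6 against 8.29 ± 4.37 CPM. The growth hormone receptor Ghr, whose signal Socs2 restrains, was the astrocyte gene, at 42.8 ± 15.7 against 0.495 ± 0.728 CPM. None of 5 tested in each cell type was called after FPI or had an unadjusted p below 0.05. The smallest p were those of the erythropoietin receptor Epor and Il4ra in microglia (edgeR adjusted p = 0.708 and 0.952) and of Il13ra1 and Il4ra in astrocytes (both 0.999).

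Of the other JAK and STAT genes, Stat2, which acts in interferon signalling, was called in microglia. It had 38.6 ± 5.08 CPM in sham and 76.1 ± 10.1 CPM in FPI mice (log2 fold change 1.00, SE 0.14, edgeR adjusted p = 0.000449), and the sham and FPI libraries did not overlap. In astrocytes none of 7 was called by edgeR, and Stat2 had 21.8 ± 3.17 CPM in sham and 32.5 ± 3.38 CPM in FPI mice (log2 fold change 0.60, SE 0.15, unadjusted p = 0.00180, edgeR adjusted p = 0.999). Between sham cell types all 7 tested were called higher in microglia, with the largest log2 fold changes in Jak3 (77.8 ± 8.71 against 2.60 ± 1.30 CPM) and Stat6 (178 ± 6.78 against 21.6 ± 11.9 CPM).

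Of 15 other feedback and phosphatase genes none was called after FPI, out of 14 tested in microglia and 12 in astrocytes. In microglia Pias3, an inhibitor of STAT3, had 33.0 ± 4.58 CPM in sham and 23.4 ± 5.68 CPM in FPI mice (edgeR unadjusted p = 0.0194, adjusted p = 0.280) and Ptprc an adjusted p of 0.701. In astrocytes the smallest p were those of Socs7 and Pias3, with 34.7 ± 3.92 and 23.0 ± 3.87 CPM in sham and 40.8 ± 5.28 and 27.5 ± 3.49 CPM in FPI (edgeR adjusted p = 0.999). In sham mice 5 were called higher in microglia, led by the phosphatases of blood-lineage cells Ptprc (424 ± 45.7 against 0.357 ± 0.331 CPM) and Ptpn6 (340 ± 25.6 against 0.831 ± 0.981 CPM). Ptpn11, which encodes the phosphatase SHP2 (138 ± 50.5 against 64.0 ± 9.01 CPM), and Socs5 (33.2 ± 1.65 against 21.1 ± 2.59 CPM) were called higher in astrocytes. Sham astrocyte library 3 had the least Ptpn11 (80.4 CPM) and oligodendrocyte marker RNA (1631 CPM) of its group. Library 4 had the most of both (207 and 17386 CPM). The part of those cells in the Ptpn11 level was not tested.

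The 6 adaptors that couple gp130 to the MAPK and PI3K branches gave no call after FPI in either cell type. Gab1 had 118 ± 16.6 CPM in sham and 88.6 ± 14.4 CPM in FPI microglia (edgeR unadjusted p = 0.00976, adjusted p = 0.198), and Irs2 106 ± 9.28 and 130 ± 33.1 CPM (adjusted p = 0.498). In astrocytes Shc1 and Gab2 had the smallest p (edgeR adjusted p = 0.999). Gab2 and Grb2 were called higher in sham microglia (106 ± 9.60 against 24.2 ± 5.94 CPM and 118 ± 12.5 against 35.5 ± 8.25 CPM), and Gab1 in sham astrocytes (259 ± 137 against 118 ± 16.6 CPM). Gab1 was at 138 CPM in sham astrocyte library 3 and at 475 CPM in library 4. These libraries held the least and the most oligodendrocyte marker RNA of that group. The part of those cells in the Gab1 level was not tested.

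Genes known to respond to STAT3 were followed as a list of 26. The list was chosen with earlier results of these data known, so its counts and medians beside all genes are description, not independent evidence. In astrocytes 23 were tested, 20 had a log2 fold change above 0 and 8 of these an unadjusted p below 0.05, against 2.32% of all genes in either direction. The median log2 fold change was 0.66, against -0.01 over all genes. None was called by edgeR, which called 1 of 13741 genes in astrocytes, where DESeq2 called 39. Gfap, the intermediate filament of astrocytes, had 219 ± 109 CPM in sham and 849 ± 284 CPM in FPI astrocytes (log2 fold change 1.98, SE 0.34, edgeR adjusted p = 0.151). Serpina3n, a secreted protease inhibitor, had 22.4 ± 12.6 and 113 ± 51.6 CPM (2.37, SE 0.42, edgeR adjusted p = 0.161). Neither gene overlapped between the groups. The paper, which used DESeq2, counted both among its differentially expressed astrocyte genes. It also found Serpina3n in astrocytes after FPI by in situ hybridization.

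In microglia 22 of the list were tested, 18 had a log2 fold change above 0 and 5 were called, all higher, against 2.35% of all genes in either direction, with a median of 0.30 against -0.01 over all genes. C3, a complement component, rose from 5.19 ± 3.43 to 59.4 ± 40.8 CPM (log2 fold change 3.55, SE 0.50, edgeR adjusted p = 0.000333). Fgl2 rose from 19.9 ± 2.64 to 62.4 ± 20.9 CPM (1.67, SE 0.22, edgeR adjusted p = 0.000154) and the hyaluronan receptor Cd44 from 2.41 ± 1.11 to 12.4 ± 7.93 CPM (2.38, SE 0.48, edgeR adjusted p = 0.00959). Gfap and Vim, intermediate filaments, rose from 6.29 ± 5.14 to 42.1 ± 35.3 CPM (2.78, SE 0.55, edgeR adjusted p = 0.00772) and from 12.1 ± 1.30 to 32.9 ± 20.1 CPM (1.46, SE 0.31, edgeR adjusted p = 0.0126). In replicates 1 to 3 Gfap had 1.01 to 3.95 CPM in sham and 27.6 to 99.5 CPM in FPI microglia. In replicates 4 and 5 it had 9.85 to 13.4 and 14.3 to 17.3 CPM. Cd44 was at 9.88 to 22.1 CPM in FPI replicates 1 to 3 and 5.12 to 5.55 CPM in 4 and 5. For Vim, C3 and Fgl2 the FPI libraries of both sets overlapped. The part of the monocyte and border macrophage markers, higher in replicates 1 to 3, was not tested.

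Astrocyte markers, of which Gfap is one, moved in the same libraries, from 1.17% to 1.71% of their astrocyte level in sham to 1.47% to 3.11% in FPI microglia. The same percentages of the FPI astrocyte level come to 12.5 to 26.4 CPM for Gfap, against 14.3 to 99.5 CPM measured, and to 4.08 to 8.61 CPM for Vim, against 13.7 to 65.9 CPM. For Cd44 (0.258 to 0.545 CPM against 5.12 to 22.1 CPM), C3 (0.326 to 0.689 against 23.3 to 117 CPM) and Fgl2 (0.0583 to 0.123 against 36.6 to 89.7 CPM) they lie below every measured value. Between the sham cell types 13 of 25 were called higher in microglia, against 25.3% of all genes, and 9 in astrocytes, against 35.6%. Icam1 (131 ± 6.86 against 1.22 ± 0.911 CPM) and Ccl2 (20.7 ± 9.64 CPM, against 1 count in all sham astrocytes) led in microglia, and S1pr3 (75 ± 40.6 against 0.404 ± 0.315 CPM) and Serpina3n (22.4 ± 12.6 against 0.143 ± 0.246 CPM) in astrocytes.

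**Figure D5:**
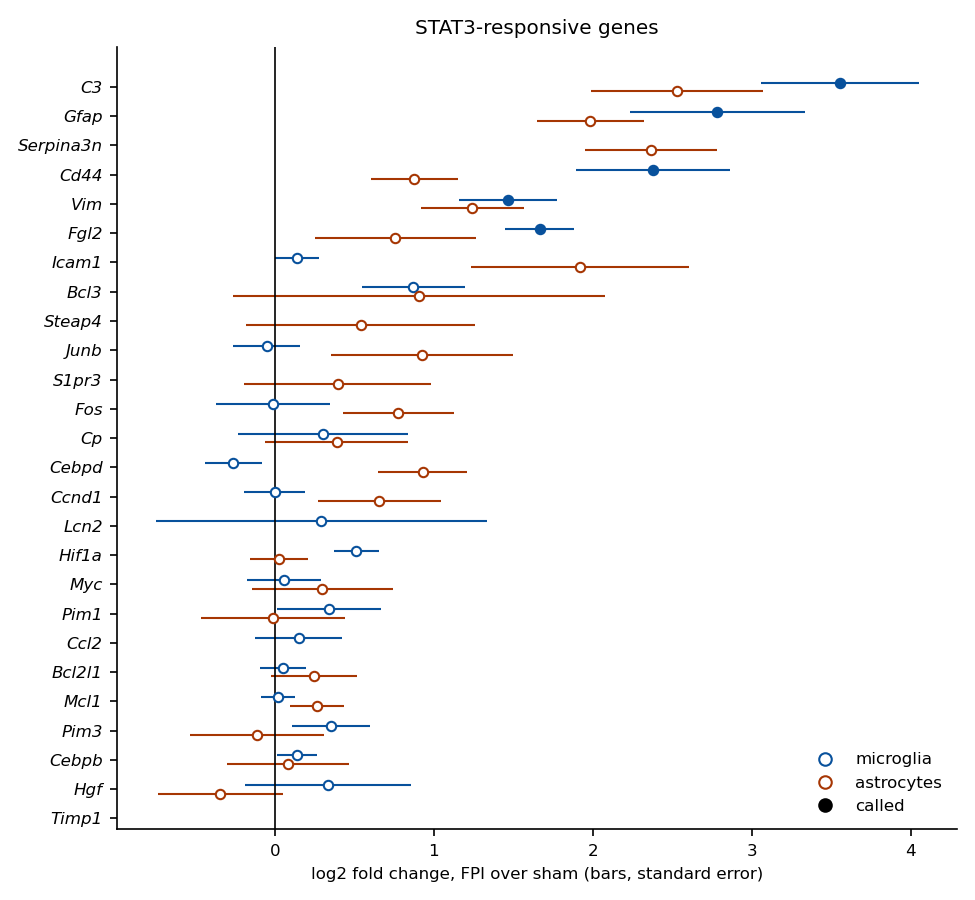
Log2 fold change, FPI over sham, of 26 STAT3-responsive genes in microglia and astrocytes; bars are the standard error, filled points are called, and a missing point is a gene that did not pass the count filter there. In astrocytes 20 of 23 open points lie above 0, and in microglia 5 points are filled.

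The genes whose levels went most closely with a member were found over the 10 libraries of the cell type where the member was higher, among 12125 genes in microglia and 13722 in astrocytes, by Pearson's r of log2 CPM. These libraries share their sort, sequencing and the sham and FPI groups, and no test goes with the ranking. For Il6st in microglia they were Etv5 (r = 0.943), Fcrl1 (0.924) and Slc7a8 (0.922). Osmr in astrocytes had Tagln2 (0.981) and Uchl1 (0.978). For Stat3 in microglia they were Arfgap3 (0.927), Mapk7 (0.925) and Lgi4 (0.910), and for Socs3 in microglia Myo6 (0.947), Tra2b (0.941) and Wdr19 (0.937).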

How the data were processed

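Libraries were made by the authors with a stranded SMARTer kit for low inputs of total RNA and read in pairs on a NovaSeq. The submitters' processing notes name bcl2fastq, HISAT2 2.1.0, featureCounts, mm10 and GRCm38.p6; the strand setting is not given in the sources used here. The deposited values are raw counts of reads per gene, whole numbers with no normalization, and all 20 single-library files equal the combined table. Of 39017 identifiers 37607 matched GENCODE M21, which gave coordinates and exon lengths and holds 99.8% of the counts.

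Groups came from the sample titles. Within a group the library names bear separate animal numbers, except FPI astrocyte libraries 2 and 5. The counts were tested in edgeR 4.0.16 (R 4.3.3; default filter on low counts, TMM, quasi-likelihood test, Benjamini-Hochberg adjustment over all genes tested), each cell type alone for FPI against sham, and all 20 libraries together for sham microglia against sham astrocytes and for the difference of the FPI effects. Calls needed an adjusted p below 0.1 and an absolute log2 fold change above 0.6. SE is the log2 fold change divided by the square root of the F statistic, and the precision of a low gene is set by its counts, given beside it. Members, lists and tests were chosen with earlier results of these data known, so that none is independent evidence. Named genes are the 10 members and, of each list, those called and the 2 of smallest p in each cell type, and between sham cell types the 2 called with the largest fold change in each direction. A few genes that this rule names are not reported here. Alternatives were DESeq2 1.42.0, RLE factors, 2 other count filters, a replicate block, terms for replicates 4 and 5, a fit of all 20 libraries, other thresholds, and leaving out single libraries or those of 3 animals with both cell types. Summing FPI astrocyte libraries 2 and 5 was added after seeing the data. The scripts were tested on simulated data. Tables and figures used Python 3.11.15, pandas 2.3.3, numpy 2.4.6 and matplotlib 3.10.9.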

Additional observations from a re-analysis of the deposited data

Results flagged for a closer look

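In 3 of 40 groups of 5 libraries (10 members in 4 groups) 1 library stood apart from the other 4 by Dixon's test, which chance does in about 1 of 20 groups. Osmr in FPI microglia library 2 was at 3.00 CPM (24 counts), against 1.28 CPM in the next library. Socs2 in FPI microglia library 4 was at 2.46 CPM (16 counts), against 0.602 CPM in the next. Jak2 in sham astrocyte library 4 was at 111 CPM (1078 counts), against 69.9 CPM in the next, and the same library held the most oligodendrocyte marker RNA of all libraries, 17386 CPM. The part of those cells in the Jak2 level was not tested.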

How the results depend on the processing

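The count of called members changed under 2 alternatives. In astrocytes DESeq2 called 1 member, Socs3, where edgeR called 0. Between sham cell types 4 members were called, not 7, when each library had to hold 10 counts or more of a gene, because Osmr, Cntfr and Il6ra did not pass that filter. The 7 were called in every other alternative, no member was called after FPI in microglia, and none for the difference of the effects, in any alternative. Over all genes DESeq2 called 39 in astrocytes, edgeR 1, the fit of all 20 libraries 53, the replicate block 11, the fit with no filter 9, the term for replicates 4 and 5 gave 6, and leaving out 1 library 0 to 3. For the difference of the effects edgeR called 30 genes, DESeq2 188 and the filter of 10 counts 1. It was 69 without the astrocyte and 8 without the microglia libraries of the 3 animals, and 48 without FPI astrocyte library 3. Between sham cell types the filter of 10 counts left 4551 of 9175 calls. In microglia the count of 285 fell to 121 in the fit of all 20 libraries and to 177 without sham library 2 or FPI library 2.

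Signs of some log2 fold changes reversed (the reported value stands in parentheses), and the cause was not tested. In microglia Cntfr (0.02) was -0.21 with a replicate block, -0.0517 with the term for replicates 4 and 5, -0.0182 in the fit of all 20 libraries and -0.49 to 0.33 leaving out 1 library, and Socs3 (-0.04) -0.24 to 0.086. In astrocytes Jak1 (0.02) was -0.0185 with no filter, -0.0084 in the fit of all 20 libraries and -0.091 to 0.0686 leaving out 1 library, and Socs2 (-0.22) -0.64 to 0.10. Between sham cell types Lifr (0.12) was -0.025 with the filter of 10 counts and Jak2 (-0.32) 0.0164 without the astrocyte libraries of the 3 animals. For the difference of the effects, leaving out 1 library gave Osmr (0.41) -0.0571 to 0.71, Lifr (-0.05) -0.17 to 0.0738, Cntfr (0.38) -0.14 to 0.73, Jak2 (-0.04) -0.27 to 0.0159 and Socs2 (0.38) -1.20 to 0.96. Without the astrocyte libraries of the 3 animals Osmr was -0.0153 and Jak1 (-0.09) 0.0363, and without their microglia libraries Jak2 was 0.0409.

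Replicate numbers were not taken to pair the animals: deviations of same-numbered sham and FPI libraries correlated at -0.07 to 0.09 in microglia and -0.01 to 0.45 in astrocytes, and 2 and 3 of 5 sham libraries correlated best with their own number. The replicate block changed no call of a member. Below about 30 counts a library (Socs2, Osmr in microglia, Il6ra in astrocytes) depth limits what can be seen.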

Other observations

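Members were also compared with one another over the 10 libraries of each cell type, as a description with no test; the libraries share the sham and FPI groups. In astrocytes Stat3 went with Il6st (Pearson's r = 0.819) and Osmr (0.780) and against Cntfr (-0.706), Lifr against Osmr (-0.790), and Cntfr with Jak1 (0.834). In microglia Lifr went with Il6ra (0.888) and Jak2 against Il6st (-0.878). Il10ra, chosen after its values were seen, was the only gene of the pathway lists called for a difference of the FPI effect between cell types (log2 difference, microglia minus astrocytes, -2.89, SE 0.57, edgeR adjusted p = 0.0391). Of all 15077 genes 30 (0.199%) were called. The microglial markers moved the same way: all 8 had a log2 difference below 0 (median -2.17), and 2 were called. Il10ra was at 668 CPM in sham and 661 CPM in FPI microglia, and at 0.166 CPM (8 counts) in sham and 1.36 CPM (55 counts) in FPI astrocytes. Microglial markers in astrocytes summed to 31.6 to 60.8 CPM in sham and 42.5 to 141 CPM in FPI mice, and their percentages of the microglial level, applied to Il10ra, come to 0.949 to 1.83 CPM and 1.39 to 4.63 CPM, against 0 to 0.522 CPM and 0.623 to 1.958 CPM measured.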
